A study of Homo sapiens with 12 samples.

Results

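The matrix metalloproteinases (MMPs) and their tissue inhibitors (TIMPs) were followed here in PC9 and H1650 cells treated with EGFR inhibitors. The 10 genes MMP1, MMP2, MMP7, MMP9, MMP10, MMP13, MMP14, TIMP1, TIMP2 and TIMP3 were taken by their symbols from the gene table, which holds 60591 genes, and each symbol matched 1 row. MMPs are zinc-dependent endopeptidases that are made as inactive proenzymes and cut collagens, laminins and other proteins of the extracellular matrix as well as cell-surface proteins. TIMPs bind the active site of these enzymes and block them. MMP14 is anchored in the plasma membrane, and a complex of MMP14 with TIMP2 on the cell surface activates the proenzyme of MMP2, so TIMP2 takes part in both the activation and the inhibition of MMP2. In lung carcinoma these enzymes are known for basement membrane degradation and invasion.

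PC9 and H1650 are non-small cell lung cancer lines that, according to the study, carry the same activating EGFR deletion, and the study set them side by side because PC9 died under an EGFR inhibitor and H1650 did not. Each line was sequenced at T0 (0.1% DMSO, 0 h), after 36 h of 10 µM erlotinib and after 36 h of 0.1 µM osimertinib, which gave 6 groups of 2 libraries from poly(A) RNA. Erlotinib is a reversible and osimertinib an irreversible EGFR kinase inhibitor, and their doses differed. No 36 h library without drug was analysed here, so time in culture and drug cannot be told apart in the comparisons with T0. Each line stands for its genotype alone, and the labels give the replicates only as numbers, so p-values measure the spread between these libraries. The libraries held 17961765 to 26346187 assigned reads, and 3 reads, the floor used for detection, equalled 0.116 to 0.168 CPM (reads scaled to a common library size). All 8 epithelial markers on the marker list were detected, with a summed level of 6940 CPM or more in every library. Of 8 fibroblast markers 5 had more than 3 reads in some library, with DCN and LUM near 0 and group means of up to 40.7 CPM for COL1A1 and 19.7 for COL3A1. Of 8 leukocyte markers 6 did, with PTPRC, CD163, LYZ and CD3E near 0 and group means of up to 54.6 CPM for CSF1R in H1650 T0 and 17.4 for ITGAM in PC9 osimertinib. All 5 endothelial markers did, with a summed level of 2.43 to 6.40 CPM. In bulk samples such as these, fewer cells of a type and less RNA per cell cannot be told apart.

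The genes sit at 7 places in the genome. MMP1, MMP7, MMP10 and MMP13 lie on chromosome 11 (GRCh38), in the known MMP cluster, from the start of MMP7 at 102520508 to the end of MMP13 at 102955734, all on the minus strand. MMP2 lies on chromosome 16, MMP9 on 20, MMP14 on 14, TIMP1 on X, TIMP2 on 17 and TIMP3 on 22. Several share exonic bases with other genes, and whether the counting used strand is not given in the sources used here. SLC12A5-AS1 lies opposite 430 bases of MMP9 exon (18.4% of it), WTAPP1 opposite 150 bases of MMP1 exon and AC022966.1 opposite 367 bases of TIMP2 exon, so reads there cannot be told apart. On the same strand, AC007336.3 shares 174 bases of MMP2 exon and CEP295NL 198 bases of TIMP2 exon, which counting by strand could not resolve. TIMP1 and TIMP3 lie inside the larger genes SYN1 and SYN3, which run on the other strand.

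Promoters were searched for 3 short motifs, and 4 of them are shown. Those of MMP7 and MMP10, which had low counts, can be read beside those of MMP14 and TIMP3, which had more. MMP7 and MMP14 both had lower values in H1650 under the drugs, so a fall there does not set the pairs apart. The fall of MMP10 in H1650 is no support, as it passed the filter on low counts through H1650 T0 alone. RefSeq start sites were matched for 5 of the 10 genes. The 170 bases before the start are printed 5′ to 3′ on the gene's strand, with the AP-1 motif TGANTCA, the TATA box TATAAA and the GC box GGGCGG (searched on both strands) in capitals. They lie at chr11:102780629-102780798 (MMP10, minus strand), chr11:102530748-102530917 (MMP7, minus strand), chr14:22836415-22836584 (MMP14, plus strand) and chr22:32801535-32801704 (TIMP3, plus strand) of GRCh38.p14.
MMP10: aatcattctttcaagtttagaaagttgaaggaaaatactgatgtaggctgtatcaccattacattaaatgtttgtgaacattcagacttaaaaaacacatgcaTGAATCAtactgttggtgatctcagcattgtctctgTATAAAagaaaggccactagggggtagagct
MMP7: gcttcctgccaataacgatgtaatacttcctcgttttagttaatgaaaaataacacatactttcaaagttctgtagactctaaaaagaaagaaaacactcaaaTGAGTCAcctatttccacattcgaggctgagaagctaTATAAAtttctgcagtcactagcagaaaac
MMP14: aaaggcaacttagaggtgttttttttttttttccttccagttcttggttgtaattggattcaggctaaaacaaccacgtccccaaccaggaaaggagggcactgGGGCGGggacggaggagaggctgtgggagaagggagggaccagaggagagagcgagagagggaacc
TIMP3: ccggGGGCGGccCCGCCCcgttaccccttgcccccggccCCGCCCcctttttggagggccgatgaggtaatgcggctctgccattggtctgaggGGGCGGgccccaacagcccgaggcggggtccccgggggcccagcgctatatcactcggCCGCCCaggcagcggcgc

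MMP7 and MMP10 each held 1 AP-1 match whose first base was 67 bases before the start. Their TATAAA began 30 bases (MMP7) and 31 bases (MMP10) before it. MMP14 held 1 GC box, TIMP1 held 2 and TIMP3 held 5, and the windows of these 3 genes from 250 bases before to 50 after the start held no match to the AP-1 motif or TATAAA. Of all 35116 promoters of that length, 7.71% held TGANTCA, 11.5% held TATAAA and 45.0% held GGGCGG. A match is a description of the letters, and its use in these cells was not measured.

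The lines differed in which of the 7 MMPs made up most of their summed mRNA. Per kilobase of exon, MMP14 made up 93.8% ± 0.88 (SD, n = 2) of the summed level of the 7 MMPs in PC9 at T0. In H1650 at T0, MMP2 made up 79.9% ± 0.43 and MMP14 14.6% ± 0.30 of it. The summed level was 6.88 ± 0.38 CPM per kilobase (RPKM) in PC9 and 47.9 ± 1.2 in H1650. The 3 TIMPs together were nearer to each other, at 109 ± 1.2 RPKM in PC9 and 201 ± 4.1 in H1650. Each of them made up at least 22.0% of that sum in both lines. MMP15, which is not among the 7 MMPs, was at 12.7 and 10.8 RPKM in the PC9 T0 libraries. In the H1650 T0 libraries it was at 13.5 and 12.1 RPKM, so it stood above MMP14 in both lines.

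**Figure D1:**
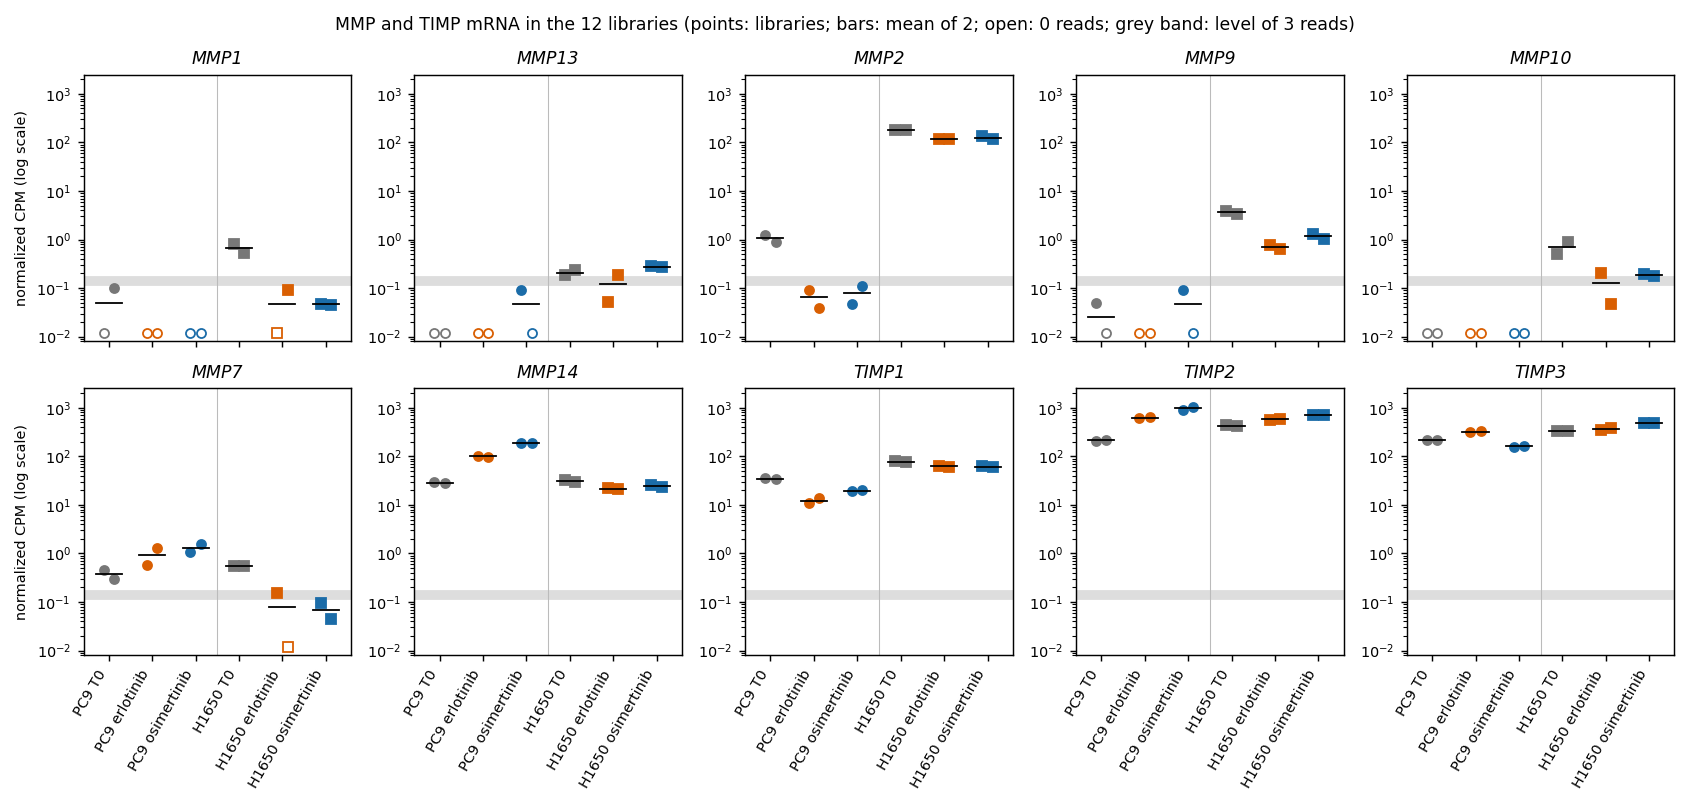
Normalized CPM (log axis) of each of the 10 genes in the 12 libraries, by line and treatment; points are libraries (circles PC9, squares H1650), bars the mean of 2, open symbols libraries with 0 reads, and the grey band the level of 3 reads. MMP2 stands above 100 CPM in H1650 and at 1.26 CPM or less in PC9, and MMP14 is above 98 CPM in the 4 drug libraries of PC9 and below 33 CPM in all others.

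Before drug, 7 of the 9 tested genes were higher in H1650 than in PC9 and none was lower, where 35.8% of all 19108 tested genes were called higher and 69.6% were called in either direction (edgeR's quasi-likelihood test, Benjamini-Hochberg adjusted p under 0.05 over all tested genes, here and below). The median log2 difference of the 9 genes was 1.17, against 0.04 for all tested genes. MMP1 and MMP10 passed the filter on low counts through the H1650 T0 libraries alone, so they had to differ and their calls are no support. Without them 5 of 7 genes were called, all higher, and the median was 1.00. MMP9 is among the 7 and had 2 reads or fewer in every PC9 library. It passed the filter through H1650 libraries alone, so its call is no support either.

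MMP2, a gelatinase that cuts denatured collagen and the collagen of basement membranes, differed widely between the lines. It was measured at 183 and 178 CPM in the H1650 T0 libraries and at 1.26 and 0.888 CPM in the PC9 T0 libraries. The lines did not overlap, and the difference was 7.39 ± 0.14 on the log2 scale (SE, adjusted p = 1.15e-25), or 167-fold. MMP9, the other gelatinase, was at 3.96 and 3.32 CPM in H1650 T0 libraries and had 1 and 0 reads in PC9, a ratio of 145 with a 95% counting interval of 25.6 to 5751. The interval covers counting error only.

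MMP10, stromelysin 2, had 11 and 23 reads in the H1650 T0 libraries and 0 in all 6 PC9 libraries, and with 3 reads per library as the floor it was at least 4.68-fold higher in H1650 at T0. MMP1, an interstitial collagenase, had 17 and 14 reads in H1650 and 0 and 2 in PC9 at T0, a ratio of 13.1 (95% counting interval 3.34 to 113, adjusted p = 0.00264). That call was lost without the first PC9 T0 library (adjusted p = 0.0646). MMP13, another collagenase, reached 6 reads at most in any library and did not pass the filter. It had 4 and 6 reads in H1650 T0, 1 and 4 under erlotinib, 6 and 6 under osimertinib, and in PC9 a single library with 2 reads.

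MMP14 and MMP7 were not called between the lines at T0. MMP14 was at 29.7 and 27.8 CPM in PC9 and at 32.3 and 30.3 CPM in H1650, a log2 difference of 0.12 with a 95% interval of -0.06 to 0.30 (adjusted p = 0.219). MMP7, matrilysin, was at 0.454 and 0.296 CPM in PC9 and at 0.560 and 0.540 CPM in H1650, and its interval of -0.80 to 1.89 leaves a wide range at this depth. The inhibitors were all higher in H1650, by 1.17 ± 0.09 for TIMP1, 1.00 ± 0.08 for TIMP2 and 0.60 ± 0.07 for TIMP3 on the log2 scale (SE, the largest adjusted p = 1.46e-08).

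In PC9, MMP14 and TIMP2 were higher and MMP2 and TIMP1 lower after 36 h with either drug than at T0. Of 9 tested genes, 5 were called under erlotinib (3 higher, 2 lower) and 6 under osimertinib (3 higher, 3 lower). In the same comparisons 61.8% and 61.4% of all tested genes were called, with 32.7% higher in each and 29.1% and 28.7% lower, so the share of members called was near that of all genes. MMP1, MMP9 and MMP10 had 2 reads or fewer in every PC9 library, and no fold change is given for them in PC9. Over the other 6 genes the median log2 change was 0.95 under erlotinib and 0.68 under osimertinib, against 0.07 and 0.06 for all tested genes.

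MMP14 was at 29.7 and 27.8 CPM at T0, at 103 and 98.5 CPM under erlotinib and at 193 and 189 CPM under osimertinib in PC9. The 3 groups did not overlap. The summed fibroblast list was 18.4 to 21.1 CPM at T0, 20.8 to 24.7 under erlotinib and 37.8 to 45.9 under osimertinib in the same line, nearly all of it COL1A1, with DCN and LUM near 0, and the summed leukocyte list was 5.04 to 6.91, 9.33 to 10.3 and 22.4 to 23.8 CPM, mostly ITGAM and CSF1R; their part in the MMP14 values was not tested. MMP14 rose 3.51-fold with erlotinib (log2 1.81 ± 0.08, adjusted p = 5.82e-17) and 6.63-fold with osimertinib (log2 2.73 ± 0.08, adjusted p = 7.18e-21), and in the direct comparison it was 1.89-fold higher under osimertinib than under erlotinib.

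TIMP2 was at 211 and 214 CPM at T0, at 606.0 and 637 CPM under erlotinib and at 889 and 1052 CPM under osimertinib in PC9. It too rose in both drug groups with no overlap, by 2.92-fold (log2 1.55 ± 0.08, adjusted p = 2.83e-16) and 4.56-fold (log2 2.19 ± 0.08, adjusted p = 1.60e-19). Under osimertinib its level per kilobase was 172 ± 20 RPKM, out of 221 ± 22 RPKM for the 3 TIMPs.

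MMP2 went from 25 and 18 reads in the PC9 T0 libraries to 2 and 1 reads under erlotinib and 1 and 2 under osimertinib. Its level was thus at or below the floor in all 4 drug libraries, and the ratio to T0 was 0.0583 under erlotinib (95% counting interval 0.0116 to 0.182, adjusted p = 2.67e-07 by edgeR) and 0.0709 under osimertinib (0.0141 to 0.222, adjusted p = 1.13e-06). MMP2 and MMP14 thus changed in opposite directions in this line. MMP14 made up 98.2% ± 0.94 and 98.6% ± 0.27 of the summed level of the 7 MMPs under the drugs. That sum rose from 6.88 to 23.0 ± 0.54 and 43.4 ± 0.41 RPKM.

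MMP7 had 9 and 6 reads at T0, 13 and 33 under erlotinib and 23 and 28 under osimertinib in PC9. Every drug library was above both T0 libraries. The rise was called under osimertinib (log2 1.79 ± 0.61, adjusted p = 0.0122) and the change of 1.32 ± 0.61 under erlotinib was not (adjusted p = 0.0635). At these counts the osimertinib call was lost without the second PC9 T0 library (adjusted p = 0.103) or without the second osimertinib library (adjusted p = 0.102), and the erlotinib change passed without the first erlotinib library (adjusted p = 0.0314), at 1.77, and was 0.63 without the second, where it did not pass.

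TIMP1 was at 35.1 and 34.0 CPM at T0, at 10.97 and 13.6 CPM under erlotinib and at 19.2 and 20.2 CPM under osimertinib in PC9. It fell by 1.48 ± 0.10 and by 0.81 ± 0.10 on the log2 scale (adjusted p = 5.70e-13 and 5.22e-08), with no overlap between the 3 groups. TIMP3, which unlike the other TIMPs is held in the matrix, was the member that moved in opposite directions under the drugs. It was at 220.0 and 213 CPM at T0, at 316 and 328 CPM under erlotinib and at 157 and 166 CPM under osimertinib, a rise of 0.57 ± 0.07 and a fall of 0.42 ± 0.07 on the log2 scale (adjusted p = 4.39e-08 and 8.24e-06).

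**Figure D2:**
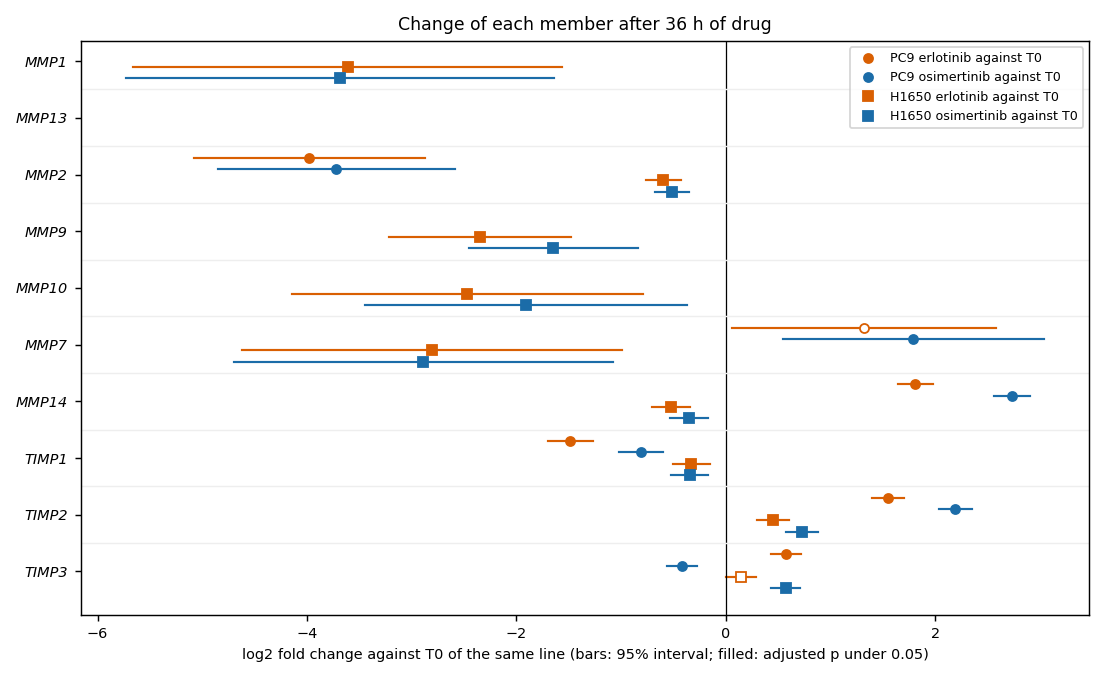
Log2 fold change of each gene after 36 h of drug against T0 of the same line, with its 95% interval; filled symbols have an adjusted p under 0.05, circles are PC9, squares H1650. MMP13 and, in PC9, MMP1, MMP9 and MMP10 have no value because of low counts; MMP14 stands at 1.81 and 2.73 in PC9 and at -0.53 and -0.35 in H1650.

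In H1650, all 6 tested MMPs and TIMP1 were lower after both drugs and TIMP2 was higher. The 2 drug comparisons of a line share its T0 libraries, so they are not independent of each other. Of 9 tested genes, 8 were called under erlotinib (1 higher, 7 lower) and 9 under osimertinib (2 higher, 7 lower). Of all tested genes, 36.5% and 35.7% were called in these comparisons (18.0% and 17.8% higher, 18.5% and 17.9% lower). MMP1 and MMP10 passed the filter through H1650 T0 alone, so their falls are no support. Without them 6 and 7 of 7 genes were called, with median log2 changes of -0.53 under erlotinib and -0.35 under osimertinib. Over all 9 genes the medians were -0.60 and -0.52, against 0.01 and 0.00 for all tested genes.

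MMP2 was at 183 and 178 CPM at T0, at 120 and 118 CPM under erlotinib and at 135 and 117 CPM under osimertinib in H1650. It fell by 0.60 ± 0.08 and by 0.52 ± 0.08 on the log2 scale (adjusted p = 9.91e-07 and 8.80e-06), and the drug groups overlapped each other. MMP9 was at 3.96 and 3.32 CPM at T0, at 0.774 and 0.652 CPM under erlotinib and at 1.29 and 1.02 CPM under osimertinib. All 4 drug libraries were below both T0 libraries. The summed leukocyte list moved alike, from 54.7 to 59.3 CPM at T0 to 21.6 to 22.2 and 26.9 to 29.2 CPM under the drugs, mostly CSF1R, with PTPRC near 0; its part in the MMP9 values was not tested. MMP9 fell by 2.34 ± 0.42 and by 1.65 ± 0.39 on the log2 scale (adjusted p = 7.17e-05 and 0.00150).

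MMP14 in H1650 was at 32.3 and 30.3 CPM at T0, at 22.5 and 21.0 CPM under erlotinib and at 25.4 and 23.7 CPM under osimertinib. It fell by 0.53 ± 0.09 and by 0.35 ± 0.09 on the log2 scale (adjusted p = 2.64e-05 and 0.00214), where in PC9 it rose. MMP7 went from 12 and 14 reads at T0 to 3 and 0 under erlotinib and 2 and 1 under osimertinib. The ratio to T0 was 0.134 (95% counting interval 0.0259 to 0.436) and 0.126 (0.0244 to 0.411), and edgeR called both (adjusted p = 0.0135 and 0.0108). The call was lost without the second erlotinib library (adjusted p = 0.173) and, for osimertinib, without the second osimertinib library (adjusted p = 0.0998).

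MMP10 in H1650 went from 11 and 23 reads to 4 and 1 under erlotinib (adjusted p = 0.0193) and to 4 and 4 under osimertinib (adjusted p = 0.0496). MMP1 went from 17 and 14 reads to 0 and 2 and to 1 and 1, and both calls passed (adjusted p = 0.00550 and 0.00460). These falls rest on few reads. Both genes passed the filter on low counts through H1650 T0 alone, so they had to fall against it and the calls are no support. The MMP1 call under erlotinib was lost without the first T0 library (adjusted p = 0.0526) or the first erlotinib library (0.109), and under osimertinib without either osimertinib library (0.0570 and 0.0636). The MMP10 call under erlotinib was lost without the second T0 library (adjusted p = 0.202) or the second erlotinib library (0.239), and under osimertinib it was lost whichever of the 12 libraries was left out (adjusted p = 0.0748 to 0.350).

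TIMP2 in H1650 was at 432 and 416 CPM at T0, at 561 and 598 CPM under erlotinib and at 702 CPM in both osimertinib libraries. The 3 groups did not overlap, and TIMP2 rose by 0.45 ± 0.07 and 0.73 ± 0.07 on the log2 scale (adjusted p = 1.75e-05 and 8.82e-09). TIMP3 was at 328 and 329 CPM at T0 and at 485 and 491 CPM under osimertinib, a rise of 0.57 ± 0.07 (adjusted p = 1.90e-07). Under erlotinib TIMP3 was at 344 and 382 CPM, a change of 0.14 with a 95% interval of 0.0016 to 0.29 that was not called (adjusted p = 0.109), though it passed without the first erlotinib library (0.0484).

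TIMP1 in H1650 was at 80.4 and 75.5 CPM at T0, at 63.3 and 60.8 CPM under erlotinib and at 63.3 and 59.3 CPM under osimertinib. It fell by 0.33 ± 0.09 and by 0.35 ± 0.09 on the log2 scale (adjusted p = 0.00352 and 0.00237), and both T0 libraries were above all 4 drug libraries.

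The response to each drug was then compared between the lines by an interaction term, the log2 change in H1650 minus that in PC9. Of the 9 tested genes, 6 were called for erlotinib (2 higher, 4 lower) and 6 for osimertinib (3 higher, 3 lower), where 40.8% and 41.9% of all tested genes were called, 21.1% and 21.5% higher and 19.8% and 20.5% lower. The 6 were MMP2, MMP7, MMP14, TIMP1, TIMP2 and TIMP3 for both drugs, and the other 3 tested genes could not be judged because PC9 had almost no reads of them. The call of MMP7 among the 6 is no support, for the reason given below. The median over the 6 genes was -0.76 for erlotinib and -0.50 for osimertinib, against -0.03 for all tested genes in both.

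MMP14 had an interaction of -2.34 ± 0.12 for erlotinib and -3.08 ± 0.12 for osimertinib on the log2 scale (adjusted p = 3.88e-15 and 1.37e-17). For MMP7 it was -4.13 ± 1.08 and -4.68 ± 1.06 (adjusted p = 0.00271 and 0.000691). MMP7 passed the filter on low counts through H1650 T0 and the PC9 drug groups alone, which all lower this term. Its interaction calls are thus no support. The MMP7 values rest on 3 reads in each H1650 drug group, and that for erlotinib was -7.90 without the first and -3.10 without the second H1650 erlotinib library, called in both cases. Both genes had risen, or had higher values, in PC9 and had fallen in H1650. TIMP2 rose in both lines, with a smaller rise in H1650 by 1.10 ± 0.11 and 1.46 ± 0.11 (interactions -1.10 and -1.46, adjusted p = 1.42e-09 and 3.59e-12). MMP2 and TIMP1 fell in both lines and fell less in H1650, with interactions of 3.38 ± 0.57 and 3.20 ± 0.58 for MMP2 and 1.15 ± 0.14 and 0.46 ± 0.13 for TIMP1. That of MMP2 rests on 3 reads in the PC9 libraries of each drug. For TIMP3 the interaction changed sign between the drugs, at -0.43 ± 0.10 for erlotinib (adjusted p = 0.000751) and 0.99 ± 0.10 for osimertinib (adjusted p = 2.73e-09).

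Osimertinib and erlotinib were compared directly within each line. In PC9, 4 of 9 tested genes were called (3 higher under osimertinib, 1 lower), where 16.6% of all tested genes were called, 10.1% higher and 6.41% lower. The median log2 difference over the 6 genes with reads was 0.55, against 0.00 for all tested genes. MMP14, TIMP1 and TIMP2 were higher under osimertinib by 0.92 ± 0.08, 0.67 ± 0.11 and 0.64 ± 0.07 on the log2 scale (the largest adjusted p = 4.24e-05). TIMP3 was lower by 0.99 ± 0.07 on that scale (log2 difference -0.99, adjusted p = 2.16e-11), at a ratio of 0.502.

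In H1650, 2 of 9 tested genes were called, both higher under osimertinib, where 8.75% of all tested genes were called, 5.02% higher and 3.73% lower. The median log2 difference over the 9 genes was 0.18, against 0.00 for all tested genes. TIMP3 was higher by 0.43 ± 0.07 (adjusted p = 0.000102) and TIMP2 by 0.28 ± 0.07 (adjusted p = 0.0161). The TIMP2 call was lost when the first erlotinib library was left out (adjusted p = 0.164), and also without either osimertinib library (adjusted p = 0.0935 and 0.0768). MMP14 was not called, with a log2 difference of 0.18 and a 95% interval of -0.01 to 0.36 (adjusted p = 0.272), and MMP2 had 0.08 with an interval of -0.09 to 0.25.

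Whether the difference between the drugs depended on the line was tested by a further interaction term. It was called for 4 of 9 genes (1 higher, 3 lower in H1650 than in PC9), where 5.21% of all tested genes were called, 1.81% higher and 3.40% lower. TIMP3 had 1.42 ± 0.10 (adjusted p = 1.86e-10), MMP14 -0.74 ± 0.12 (adjusted p = 0.000142), TIMP1 -0.69 ± 0.14 (adjusted p = 0.00229) and TIMP2 -0.37 ± 0.10 (adjusted p = 0.0345). The TIMP2 call was lost on leaving out either PC9 T0 library, the first PC9 erlotinib, the second PC9 osimertinib, the second H1650 erlotinib or either H1650 osimertinib library, with adjusted p from 0.0518 to 0.227. The median over the 6 genes with reads in PC9 was -0.46, against -0.0043 for all tested genes. TIMP3 was thus lower under osimertinib than under erlotinib in PC9 and higher in H1650.

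Under the drugs the lines were further apart in MMP14 and MMP2 than at T0. Under erlotinib 7 of 9 tested genes differed between the lines (5 higher in H1650, 2 lower), where 72.1% of all tested genes did, 36.7% higher and 35.4% lower. Under osimertinib 8 of 9 did (5 higher, 3 lower), where 71.6% of all tested genes did, 36.6% higher and 35.0% lower. The median log2 difference was 2.33 and 1.64, against 0.02 and 0.01 for all tested genes. MMP1 and MMP10 passed the filter through H1650 T0 alone. Without them 6 and 7 of 7 genes were called and the medians were 0.17 and 1.59, so the erlotinib median rests on MMP1 and MMP10. MMP9 is among the 7 and passed through H1650 libraries alone, so its calls here are no support either. MMP14, not called between the lines at T0, was lower in H1650 by 2.22 ± 0.09 under erlotinib and 2.96 ± 0.09 under osimertinib (log2 differences -2.22 and -2.96). TIMP2, higher in H1650 at T0, had a log2 difference of -0.10 with an interval of -0.25 to 0.05 under erlotinib and of -0.47 ± 0.07 under osimertinib (adjusted p = 2.44e-06). The call of TIMP3 under erlotinib (log2 0.17 ± 0.07, adjusted p = 0.0277) was lost without the first PC9 erlotinib library (adjusted p = 0.150) or the second H1650 erlotinib library (0.378). MMP10 had 5 reads in H1650 under erlotinib and 8 under osimertinib, and 0 in PC9. Its call under erlotinib was lost without either PC9 erlotinib library, the second H1650 T0 or the first H1650 erlotinib library (adjusted p = 0.0522 to 0.267). Under osimertinib it was lost without either PC9 osimertinib or the first H1650 osimertinib library (adjusted p = 0.0518 to 0.105).

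Over the 6 groups the order of levels differed from gene to gene. For MMP14 the order from low to high was H1650 erlotinib, H1650 osimertinib, PC9 T0, H1650 T0, PC9 erlotinib and PC9 osimertinib, and neighbours were not told apart between the first pair (adjusted p = 0.272) and between the T0 groups (0.219). For TIMP2 it was PC9 T0, H1650 T0, H1650 erlotinib, PC9 erlotinib, H1650 osimertinib and PC9 osimertinib, with the erlotinib groups of the lines not told apart (adjusted p = 0.225). For TIMP3 it was PC9 osimertinib, PC9 T0, PC9 erlotinib, H1650 T0, H1650 erlotinib and H1650 osimertinib, and the steps from PC9 erlotinib to H1650 T0 (adjusted p = 0.711) and on to H1650 erlotinib (0.109) were not called. TIMP1 and MMP2 both placed the PC9 drug groups lowest and H1650 T0 highest, and in both the H1650 drug groups were not told apart (adjusted p = 0.963 and 0.639).

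**Figure D3:**
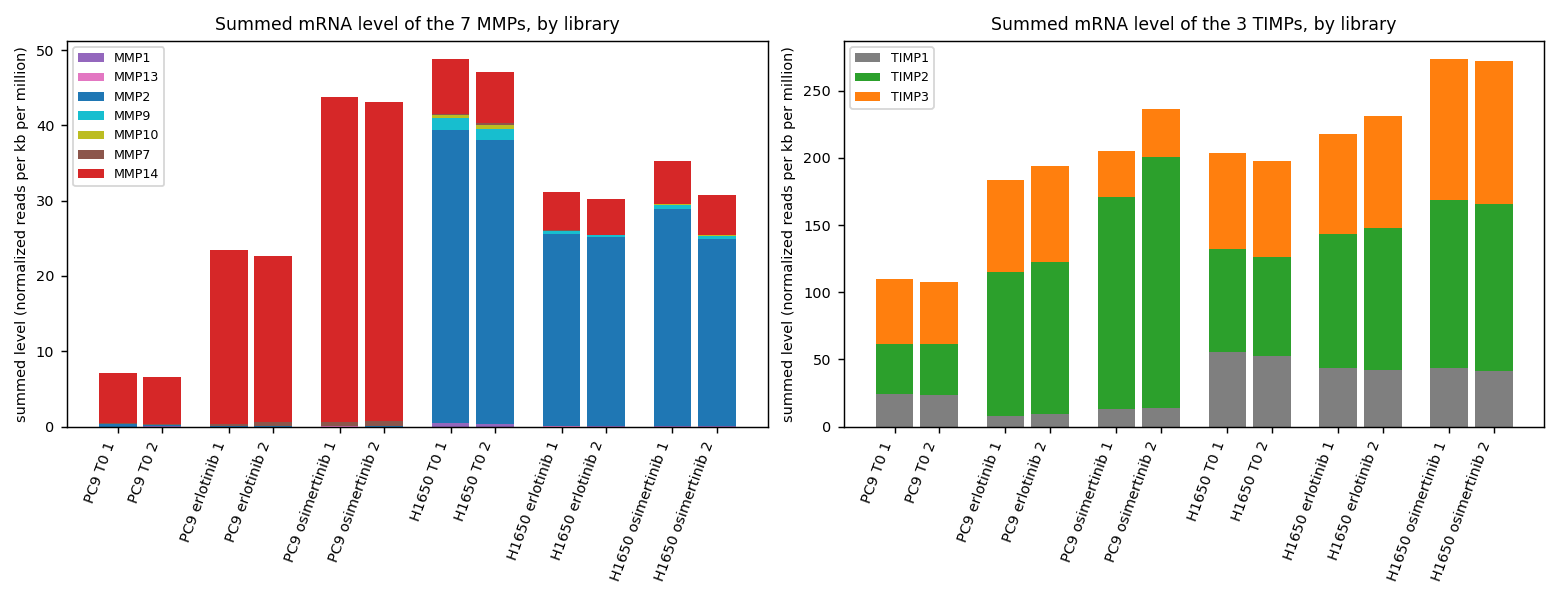
Summed level (RPKM, CPM per kilobase) of the 7 MMPs, left, and the 3 TIMPs, right, in each of the 12 libraries, stacked by gene. MMP14 fills the PC9 columns of the left panel and MMP2 most of the H1650 columns, and TIMP2 grows from 34.7% to 77.9% of the TIMP sum in PC9.

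The make-up of the TIMP sum shifted with treatment in PC9. In PC9, TIMP2 was 34.7% ± 0.76 of the 3 TIMPs at T0, 58.4% ± 0.13 under erlotinib and 77.9% ± 1.4 under osimertinib (SD, n = 2). TIMP3 went from 43.3% ± 0.51 to 37.1% ± 0.39 and 15.9% ± 1.0, and TIMP1 from 22.0% ± 0.25 to 4.49% ± 0.52 and 6.19% ± 0.41. In H1650, TIMP2 was 37.5% ± 0.20 at T0 and 45.8% ± 0.16 and 45.6% ± 0.16 under the drugs, and TIMP3 stayed between 35.1% and 38.8%. Shares use the exon length in the deposited table. With the length of the longest transcript TIMP2 was at 58.2 RPKM in PC9 at T0 and 266 under osimertinib, in place of 37.7 and 172, so its share depends on the length used, whereas its change between groups does not.

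The ratio of inhibitor to enzyme mRNA moved in opposite directions in the lines. The summed TIMP level per summed MMP level was 15.3 and 16.3 in the PC9 T0 libraries, 7.85 and 8.55 under erlotinib and 4.70 and 5.49 under osimertinib. In H1650 it was 4.17 and 4.20 at T0, 7.01 and 7.66 under erlotinib and 7.75 and 8.84 under osimertinib. Within each line the T0 values did not overlap the drug values. These ratios were not tested. In PC9, MMP15, outside the 7, was at 12.7 and 10.8 RPKM at T0, 13.5 and 11.3 under erlotinib and 13.1 and 13.6 under osimertinib. At T0 that is above the sum of the 7 MMPs (6.88 RPKM), so the PC9 ratios depend on which MMPs are summed. The same holds for the separation of the PC9 T0 and erlotinib ratios. TIMP2 per MMP14 was 5.62 and 6.09 at T0, 4.65 and 5.12 under erlotinib and 3.66 and 4.40 under osimertinib in PC9. In H1650 it was 10.6 and 10.9 at T0, 19.7 and 22.6 under erlotinib and 21.9 and 23.4 under osimertinib. These are ratios of mRNA, and neither protein nor enzyme activity was measured.

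**Figure D4:**
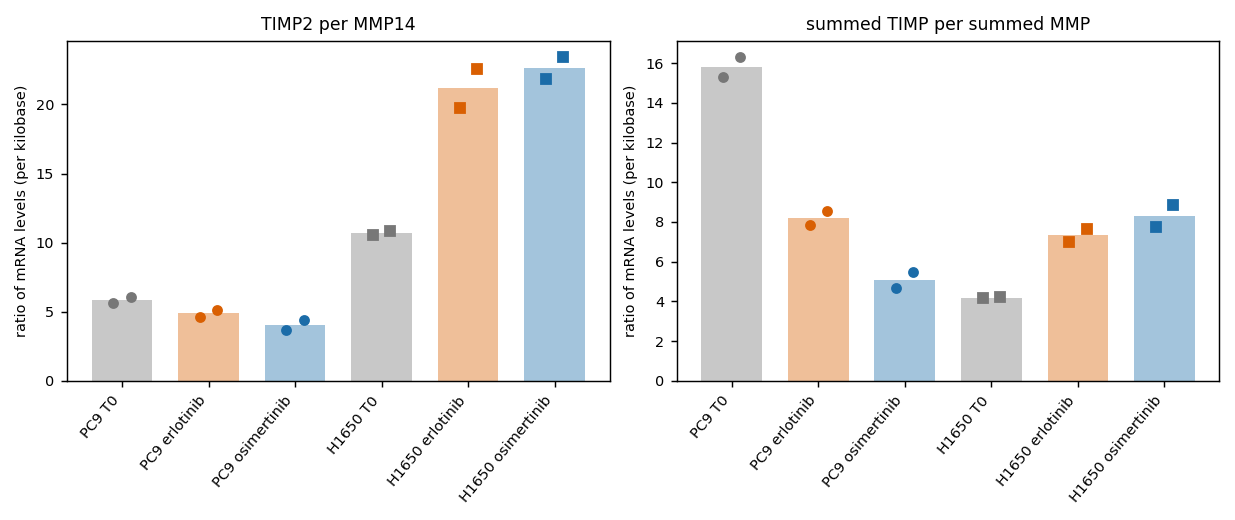
Ratio of mRNA levels per kilobase, TIMP2 to MMP14 (left) and summed TIMPs to summed MMPs (right), by group; points are libraries and bars the mean of 2. In the right panel the PC9 values go down from 15.3 and 16.3 at T0 and the H1650 values go up from 4.17 and 4.20.

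The other MMPs and TIMP4 were counted as a list of 17 genes, of which 12 were tested. In PC9, 6 were higher and 1 lower under erlotinib, and 7 were higher and 2 lower under osimertinib, with median log2 changes of 1.13 and 1.25. In H1650, 3 were higher and 1 lower under erlotinib and 2 were higher and 2 lower under osimertinib, with medians of 0.52 and 0.25. All tested genes were called at 61.8% and 61.4% in PC9 and at 36.5% and 35.7% in H1650, with medians of 0.07, 0.06, 0.01 and 0.00. No gene of this list met the rule for naming, and the following ones were chosen after their values were seen.

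MMP24, another membrane-type MMP, rose in PC9 and fell in H1650 as MMP14 did. It was at 0.958 and 0.938 CPM in the PC9 T0 libraries, 4.34 and 5.08 under erlotinib and 6.80 and 8.41 under osimertinib, a rise of 2.31 ± 0.26 and 2.99 ± 0.25 on the log2 scale (adjusted p = 1.13e-08 and 2.94e-11). In H1650 it fell by 0.98 ± 0.18 and by 0.66 ± 0.18 on that scale (adjusted p = 9.03e-05 and 0.00364). MMP11, stromelysin 3, rose in both lines under both drugs, by 2.66 ± 0.35 and 2.67 ± 0.35 in PC9 and by 2.38 ± 0.59 and 1.95 ± 0.62 in H1650, from 13 reads in each PC9 and 3 reads in each H1650 T0 library. MMP15, the membrane-type MMP with the highest CPM on the list, had group means of 49.8 to 56.6 CPM in PC9, where neither drug change was called, and rose in H1650 by 0.70 ± 0.11 and 0.43 ± 0.11.

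TIMP4 was at 13.96 and 13.4 CPM in the PC9 T0 libraries, at 3.99 and 4.06 CPM under erlotinib and at 0.925 and 0.953 CPM under osimertinib. The groups did not overlap, and TIMP4 fell by 1.76 ± 0.25 and by 3.86 ± 0.31 on the log2 scale (adjusted p = 4.96e-07 and 1.01e-11). In H1650 it had 11 reads or fewer in every library, and the higher value under erlotinib, with 2 and 11 reads against 0 and 3, was called (adjusted p = 0.0463). So in PC9 TIMP1 and TIMP4 fell with both drugs, TIMP2 rose with both, and TIMP3 rose with one and fell with the other.

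**Figure D5:**
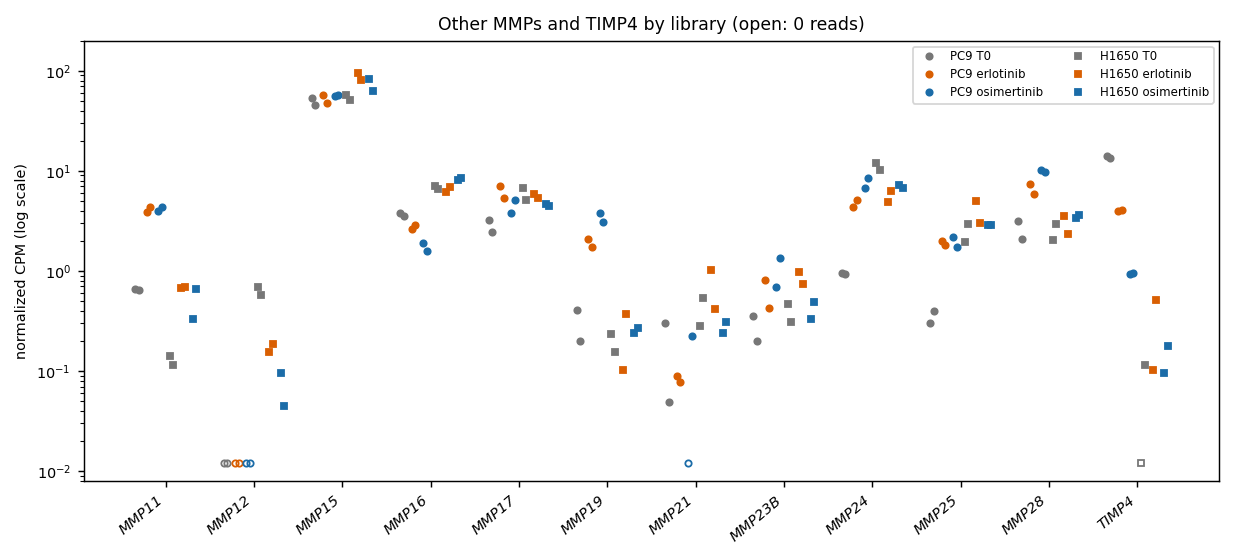
Normalized CPM (log axis) of the 12 tested genes among the other MMPs and TIMP4, by line and treatment; circles are PC9, squares H1650, open symbols 0 reads. TIMP4 goes down from 13.96 and 13.4 CPM in PC9, and MMP24 goes up in PC9 and down in H1650.

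Genes that activate or restrain MMPs were counted next (18 genes, 15 tested). In PC9, 5 were higher and 8 lower under erlotinib and 5 higher and 3 lower under osimertinib, and in H1650 2 were higher and 8 lower and 5 higher and 7 lower. Median log2 changes in PC9 were -0.30 and -0.01, those in H1650 -0.38 and -0.33. Over all tested genes 61.8% and 61.4% were called in PC9 and 36.5% and 35.7% in H1650, with medians of 0.07, 0.06, 0.01 and 0.00. PLAUR, the urokinase receptor, fell in PC9 from 53.5 ± 1.7 CPM to 13.8 ± 0.67 and 27.6 ± 3.6. LRP1, an endocytic receptor that clears MMPs and TIMPs, rose in PC9 from 63.0 ± 2.0 CPM to 173 ± 4.0 and 209 ± 6.7. THBS1, a matrix glycoprotein, fell in H1650 from 1486 ± 14 CPM to 373 ± 41 and 432 ± 5.0. In PC9 THBS1 was at 1000 ± 44 CPM at T0, 615 ± 20 under erlotinib and 981 ± 20 under osimertinib. In H1650 PLAUR was at 38.8 ± 2.0, 27.1 ± 0.45 and 30.2 ± 2.5 CPM in the same order. LRP1 was there at 168 ± 12, 193 ± 4.0 and 227 ± 35 CPM.

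Of 14 ADAM and ADAMTS proteases, related enzymes of which several are inhibited by TIMP3, 13 were tested. In PC9, 2 were higher and 6 lower under erlotinib and 4 higher and 6 lower under osimertinib, and in H1650 3 were higher and 4 lower with each drug. The share called in PC9 is to be read against 61.8% and 61.4% of all tested genes, and that in H1650 against 36.5% and 35.7%. Median log2 changes in PC9 were -0.44 and -0.14, those in H1650 -0.09 and -0.0040, beside all-gene medians of 0.07, 0.06, 0.01 and 0.00. ADAM8 fell in PC9 from 61.3 ± 7.6 CPM to 10.5 ± 0.87 and 24.9 ± 1.6. ADAM19 fell there from 44.8 ± 0.49 CPM to 13.8 ± 0.97 and 26.8 ± 0.17. In H1650 ADAM8 was at 5.91 ± 0.55 CPM at T0, 8.58 ± 1.7 under erlotinib and 7.71 ± 0.44 under osimertinib. ADAM19 in H1650 was at 21.5, 14.1 ± 0.92 and 12.7 ± 2.0 CPM in the same order. ADAMTS9 fell in PC9 from 12.3 ± 1.2 CPM to 3.11 ± 0.29 and 6.43 ± 1.2. It fell in H1650 from 35.3 ± 2.3 CPM to 22.7 ± 2.9 and 23.8 ± 0.32.

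The AP-1 and ETS factors, families known to bind MMP promoters, were all 16 tested. In PC9, 7 were higher and 8 lower under erlotinib and 8 higher and 7 lower under osimertinib, and in H1650 4 were higher and 10 lower and 4 higher and 7 lower. The background was 61.8% and 61.4% called in PC9 and 36.5% and 35.7% in H1650. Median log2 changes in PC9 were -0.32 and 0.28, those in H1650 -0.36 and -0.24, where all tested genes had 0.07, 0.06, 0.01 and 0.00. FOSL1, an AP-1 subunit, was lower in both lines, at 298 ± 2.7 CPM at T0 and 14.2 ± 1.5 and 16.8 ± 2.7 CPM in PC9, and at 25.6 ± 0.31, 3.80 ± 0.17 and 2.96 ± 0.34 CPM in H1650. ETV4, ETV5 and ETV1, the PEA3 subgroup of ETS factors, all fell in PC9 with both drugs, to group means between 0.0743 and 3.03 CPM. In H1650 ETV1 rose from 12.2 ± 1.8 CPM to 54.7 ± 2.3 and 42.2 ± 2.4. ETV5 rose there from 5.89 ± 0.94 CPM to 19.4 ± 0.28 under erlotinib and was at 4.85 ± 0.37 under osimertinib, which was not called. ETV4 was at 4.34 ± 0.46 CPM at T0 and 4.91 ± 0.50 under erlotinib, not called, and fell to 2.39 ± 0.14 under osimertinib.

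Matrix proteins that MMPs cut were counted last (16 genes, 14 tested). In PC9, 5 were higher and 6 lower under erlotinib and 6 higher and 5 lower under osimertinib. In H1650, 0 were higher and 11 lower under erlotinib and 1 was higher and 8 lower under osimertinib. Of all tested genes, 18.0% and 17.8% were higher and 18.5% and 17.9% lower in these H1650 comparisons, and 61.8% and 61.4% were called in PC9. Median log2 changes in PC9 were -0.09 and 0.17, those in H1650 -0.82 and -0.58, with 0.07, 0.06, 0.01 and 0.00 for all tested genes. LAMA3, a laminin chain, fell in PC9 from 542 ± 42 CPM to 87.9 ± 5.2 and 160 ± 7.9. In H1650 LAMA3 was at 184 ± 0.87 CPM at T0, 95.8 ± 2.4 under erlotinib and 101 ± 0.62 under osimertinib. FN1, fibronectin, rose in PC9 from 173 ± 3.5 CPM to 259 ± 20 and 634 ± 27. It fell in H1650 from 825 ± 34 CPM to 417 ± 14 and 483 ± 51. COL5A1, a fibrillar collagen chain, rose in PC9 from 77.5 ± 2.3 CPM to 159 ± 4.1 and 290 ± 6.9. In H1650 COL5A1 was at 1059 ± 80 CPM at T0, 784 ± 23 under erlotinib and 904 ± 92 under osimertinib.

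The genes whose log2 CPM followed each member most closely over the 12 libraries were also listed, by Pearson correlation among 10289 genes with a mean of at least 10 CPM. For MMP14 these were CRYBG2 (r = 0.992) and ANKRD13A (r = 0.990), for TIMP2 CTSH (0.989) and BAZ2B (0.983), and for MMP2 FXYD5 (0.998) and PPP4R3A (0.998). For TIMP3 they were GNPAT (0.932) and LAMP3 (0.930), for TIMP1 MYORG (0.995) and CHST6 (0.993), and for MMP7 BAIAP2 (0.9499) and MYADM (0.945). By Spearman (rank) correlation BAIAP2 alone of these genes stayed among the 2 closest to its member, so the names depend on the measure. The points share line and treatment, so these values describe patterns over 6 groups. Among the members themselves MMP2 and TIMP1 had r = 0.952, MMP14 and MMP7 had r = 0.820, and MMP2 and MMP14 had r = -0.827.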

How the data were processed

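Reads were assigned to genes by the authors with featureCounts in a DolphinNext pipeline, and the deposited values are raw counts per gene with each gene's exon length; the build was GRCh38 and DESeq2 is named in the submitters' processing notes, while aligner, annotation and strandedness are not given in the sources used here. The authors' counts were tested here with edgeR 4.0.16 (R 4.3.3) without further change: filterByExpr kept 19108 of 60591 genes, libraries were scaled by TMM (factors 0.941 to 1.08), and 1 quasi-likelihood model over the 6 groups gave 9 comparisons, with 3 more added after the data were seen. The SE of a log2 fold change is its size divided by the square root of F. CPM are TMM-normalized, and RPKM divide them by the deposited length. Library totals were 17961765 to 26346187 reads, and intervals and floors of 3 reads cover counting error only.

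The members, gene lists and tests were chosen with earlier results of these data known. Listed genes were named when their mean was at least 10 CPM and they were called with an absolute log2 change over 1 in a drug comparison, at most 4 a list by size of change. Some genes that met this rule are not reported here. Replicates differed by more than sampling noise (chi-square per degree of freedom 4.02 to 7.13). Alternatives were RLE and upper quartile scaling, no filter, at least 10 counts in every library, 1 fit per cell line, DESeq2 1.42.0, stricter calls, a replicate block and leaving out each library. Gene positions are from GENCODE 29, promoters from RefSeq (GRCh38.p14).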

Additional observations from a re-analysis of the deposited data

Results flagged for a closer look

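The drug response differed between the lines, by the interaction term in edgeR's model, for 6 of 9 tested genes under each drug. Of all tested genes, 40.8% were called for erlotinib and 41.9% for osimertinib. The log2 change in H1650 minus that in PC9 under erlotinib was 3.38 for MMP2, -4.13 for MMP7, -2.34 for MMP14, 1.15 for TIMP1, -1.10 for TIMP2 and -0.43 for TIMP3. Under osimertinib it was 3.20 for MMP2, -4.68 for MMP7, -3.08 for MMP14, 0.46 for TIMP1, -1.46 for TIMP2 and 0.99 for TIMP3. The values of MMP2 rest on 3 reads in each PC9 drug group, and those of MMP7 on 3 reads in each H1650 drug group. MMP7 passed the filter on low counts through H1650 T0 and the PC9 drug groups alone, so its calls here are no support.

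The difference between osimertinib and erlotinib also depended on the line for 4 of 9 tested genes, where 5.21% of all tested genes were called. The H1650 minus PC9 values were -0.74 for MMP14, -0.69 for TIMP1, -0.37 for TIMP2 and 1.42 for TIMP3 on the log2 scale. All of these values except that of TIMP2 (adjusted p = 0.0518 to 0.227 without 1 of 7 libraries) kept their call whichever library was left out.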

How the results depend on the processing

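Of 83 member log2 changes, 64 kept direction and call under every normalization, filter, model and left-out library in which they were tested. An alternative in which a gene was not tested counted as no change, as for MMP2 and MMP9 under the strictest count filter. On the same basis 80 never changed direction. The 3 that did were uncalled differences of osimertinib against erlotinib in H1650: MMP2 went to -0.026 without the first osimertinib library (and ranged up to 0.19), MMP10 to -0.15 without the second erlotinib library (up to 1.86), and TIMP1 to 0.011 without the first erlotinib and 0.034 without the second osimertinib library (down to -0.0598).

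With at least 10 counts in every library, which left only MMP14 and the 3 TIMPs in the test, the members called fell to 4 (from 8) and 4 (from 9) in H1650 under erlotinib and osimertinib, and to 3 (from 7), 3 (from 7) and 4 (from 8) between the lines at T0, under erlotinib and under osimertinib. Of 13076 genes tested that way, 6224 and 6121 were called in H1650 under erlotinib and osimertinib. Between the lines 9873, 10034 and 9971 were called at T0, under erlotinib and under osimertinib. In the main fit with an absolute log2 change over 1 also required, 4 and 4 were called in H1650 under the drugs, 0 and 0 for osimertinib against erlotinib in PC9 and H1650, and 1 for that difference by line. The 4 in H1650 were MMP1, MMP7, MMP9 and MMP10, and the calls of MMP1 and MMP10 are no support, as given above. At an adjusted p under 0.01, 1 was called for osimertinib against erlotinib in H1650. The share of all tested genes called at these stricter cutoffs is not given here, so the counts cannot be set against it. Leaving out single libraries gave 5 to 6 calls for each drug in PC9, 6 to 8 for each in H1650, 6 for each drug by line, 4 and 1 to 2 for osimertinib against erlotinib in PC9 and H1650, and 6 to 7, 5 to 7 and 7 to 8 between the lines at T0, under erlotinib and under osimertinib, and 3 to 4 for the drug difference by line.

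Replicate numbers did not pair the libraries (correlations -0.0671 to 0.0947). With the replicate block, TIMP3 passed in H1650 under erlotinib (adjusted p = 0.0412) and MMP10 did not under osimertinib (0.0609), and all genes called for osimertinib against erlotinib rose from 1672 to 2670 in H1650 and from 995 to 1722 by line. That count was 2108 in PC9 (from 3163) without its second osimertinib library, and 782 to 1093 in H1650 without the first or second erlotinib or first osimertinib library. Where DESeq2 or another scaling changed a call the cause was not tested: MMP7 in PC9 under osimertinib (DESeq2, adjusted p = 0.0631), MMP1 between the lines at T0 (DESeq2, 0.0913), MMP7 in PC9 under erlotinib (upper quartile, 0.04995) and TIMP3 between the lines under erlotinib (RLE, 0.0621). Low counts limit MMP1, MMP7, MMP10 and MMP13.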

Other observations

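MMP12, macrophage elastase, had 0 reads in all 6 PC9 libraries. In H1650 its mean was 0.639 ± 0.085 CPM at T0, 0.171 ± 0.022 under erlotinib and 0.0700 ± 0.036 under osimertinib (SD, n = 2), and the osimertinib change was called by edgeR (log2 -3.10 ± 0.87, adjusted p = 0.00671). MMP12 passed the filter on low counts through H1650 T0 alone, so it had to differ and the call is no support. MMP12 was thus measured in H1650 alone, as MMP1, MMP9 and MMP10 largely were. MMP19 and MMP28 were higher under both drugs in PC9, by 2.65 ± 0.50 and 3.51 ± 0.48 for MMP19 and by 1.34 ± 0.24 and 1.93 ± 0.24 for MMP28 on the log2 scale. In H1650 neither gene was called under either drug. MMP19 had 8 and 4 reads in the PC9 T0 libraries and passed the filter on low counts through PC9 drug libraries alone. It thus had to differ from T0 there, and its rise is no support. The choice of these 3 genes followed from their values.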
